A study of Mus musculus with 4 samples.

Results

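The subject is a group of 10 genes that encode enzymes and a chaperone of collagen maturation: the prolyl 4-hydroxylase subunits P4ha1, P4ha2 and P4ha3, the lysyl hydroxylases Plod1, Plod2 and Plod3, the lysyl oxidases Lox, Loxl1 and Loxl2, and the collagen chaperone Serpinh1. They were chosen by symbol and all 10 were found among the 28006 features of the count matrices. Single-cell RNA-seq was run on tdTomato+ cells (Cxcl12CE-tdTomato+ cells) sorted from femurs of Cxcl12-iCreER; R26R(tdTomato/+) mice, in which a tamoxifen-inducible Cre recombinase carried by a Cxcl12 bacterial artificial chromosome switches on a heritable red reporter in stromal cells of the bone marrow. Tamoxifen was given 7 days before the marrow of 1 femur was removed mechanically, and cells were taken 7 days after that surgery from the ablated femur (ABL) and from the unoperated contralateral femur (CONT). Both groups therefore share the genotype and the tamoxifen. ABL was compared with CONT to describe how sorted cells of the injured femur differed from those of the unoperated one. Each condition had 1 library in each of 2 replicates, 4 libraries in all, each made from cells pooled over mice, with Chromium version 2 chemistry in replicate 1 and version 3 in replicate 2. The distal growth plates and the proximal ends of the bones had been removed.

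Collagen chains are modified while they are still in the endoplasmic reticulum. Prolyl 4-hydroxylases convert prolines to hydroxyproline, which holds the triple helix together at body temperature, lysyl hydroxylases convert lysines to hydroxylysine, which determines the type of crosslink, and the chaperone HSP47, the product of Serpinh1, binds the folded triple helix on its way to the Golgi apparatus. Outside the cell, lysyl oxidases oxidize lysines and hydroxylysines of collagen and elastin so that fibres become covalently crosslinked, a step on which the strength of bone matrix depends.

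Levels are given as CPM, the UMIs of a gene per 1000000 UMIs summed over all cells of a class in 1 library. A UMI marks 1 captured 3′ end, so CPM values were not divided by transcript length. The libraries held between 22889380 and 44784072 UMIs and 1459 to 3433 cells. The ABL library of replicate 2 stood apart from the other 3: with every cell thinned to 2000 UMIs, a UMI of Xist, the RNA of the inactive X chromosome, was found in 39.9%, 65.7% and 60.9% of the reticular cells of CONT 1, ABL 1 and CONT 2 (the number being the replicate), but in 0 of the 342 of ABL 2 (upper bound of the exact binomial interval 1.07%), although the 2 femurs of a replicate are described as coming from the same mice. In replicate 2, differences between mice, which may include their sex, therefore cannot be told apart from the ablation. The shares of CONT 1 and ABL 1 also differed, so an equal mix of mice in the libraries of replicate 1 is not shown either. For reticular cells the value in each library is given for all 10 genes. Libraries of the same replicate shared 5 and 1 cell barcodes, and other pairs shared none.

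Many of the sorted cells were not stromal. Clusters expressing markers of blood cells (hematopoietic cells) made up 1966 of the 3433 cells of CONT 1, 746 of the 1459 of ABL 1, 326 of the 2404 of CONT 2 and 613 of the 2537 of ABL 2. Among mesenchymal cells, reticular cells, named from 10 markers that include Cxcl12, Lepr and Adipoq, were 86.1% and 96.0% in the CONT libraries of replicates 1 and 2, and 54.9% and 18.9% in the ABL libraries. Their 10 markers summed to between 24502 and 28857 CPM in reticular cells and to between 683 and 2458 CPM in hematopoietic cells. At the clustering resolution used, pre-osteoblasts were named in replicate 1 alone, and joint, mural and cycling cells in replicate 2 alone. The mural class was not stable: it held 35 and 135 cells of CONT 2 and ABL 2, but 4 and 8 at resolution 1.5, where 32 and 80 cells of these libraries were named pre-osteoblasts. The cycling class was not stable either. It held 133 cells of ABL 2, but 268 at resolution 0.4 and 124 at resolution 1.5, and it was not named under a stricter cell filter. A level is given only where a class had at least 10 cells in a library.

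At the clustering resolution used, the 10 genes together were highest in the cycling cells of ABL replicate 2, at a summed level of 6139 CPM. Osteoblasts followed with 4595 and 5670 CPM in ABL replicates 1 and 2, above all 4 reticular values (2241 to 3566 CPM). Chondrocytes had 2361 and 5190 CPM in the same libraries, a range that overlaps with that of reticular cells. Endothelial cells ranged from 733 to 1065 CPM, and hematopoietic cells from 127 to 210 CPM. Hematopoietic cells were thus below every other class in all 4 libraries, and also below the free RNA of the empty droplets, which held 833 to 2166 CPM of these transcripts. The levels differ from gene to gene in the plot by cell class.

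**Figure D1:**
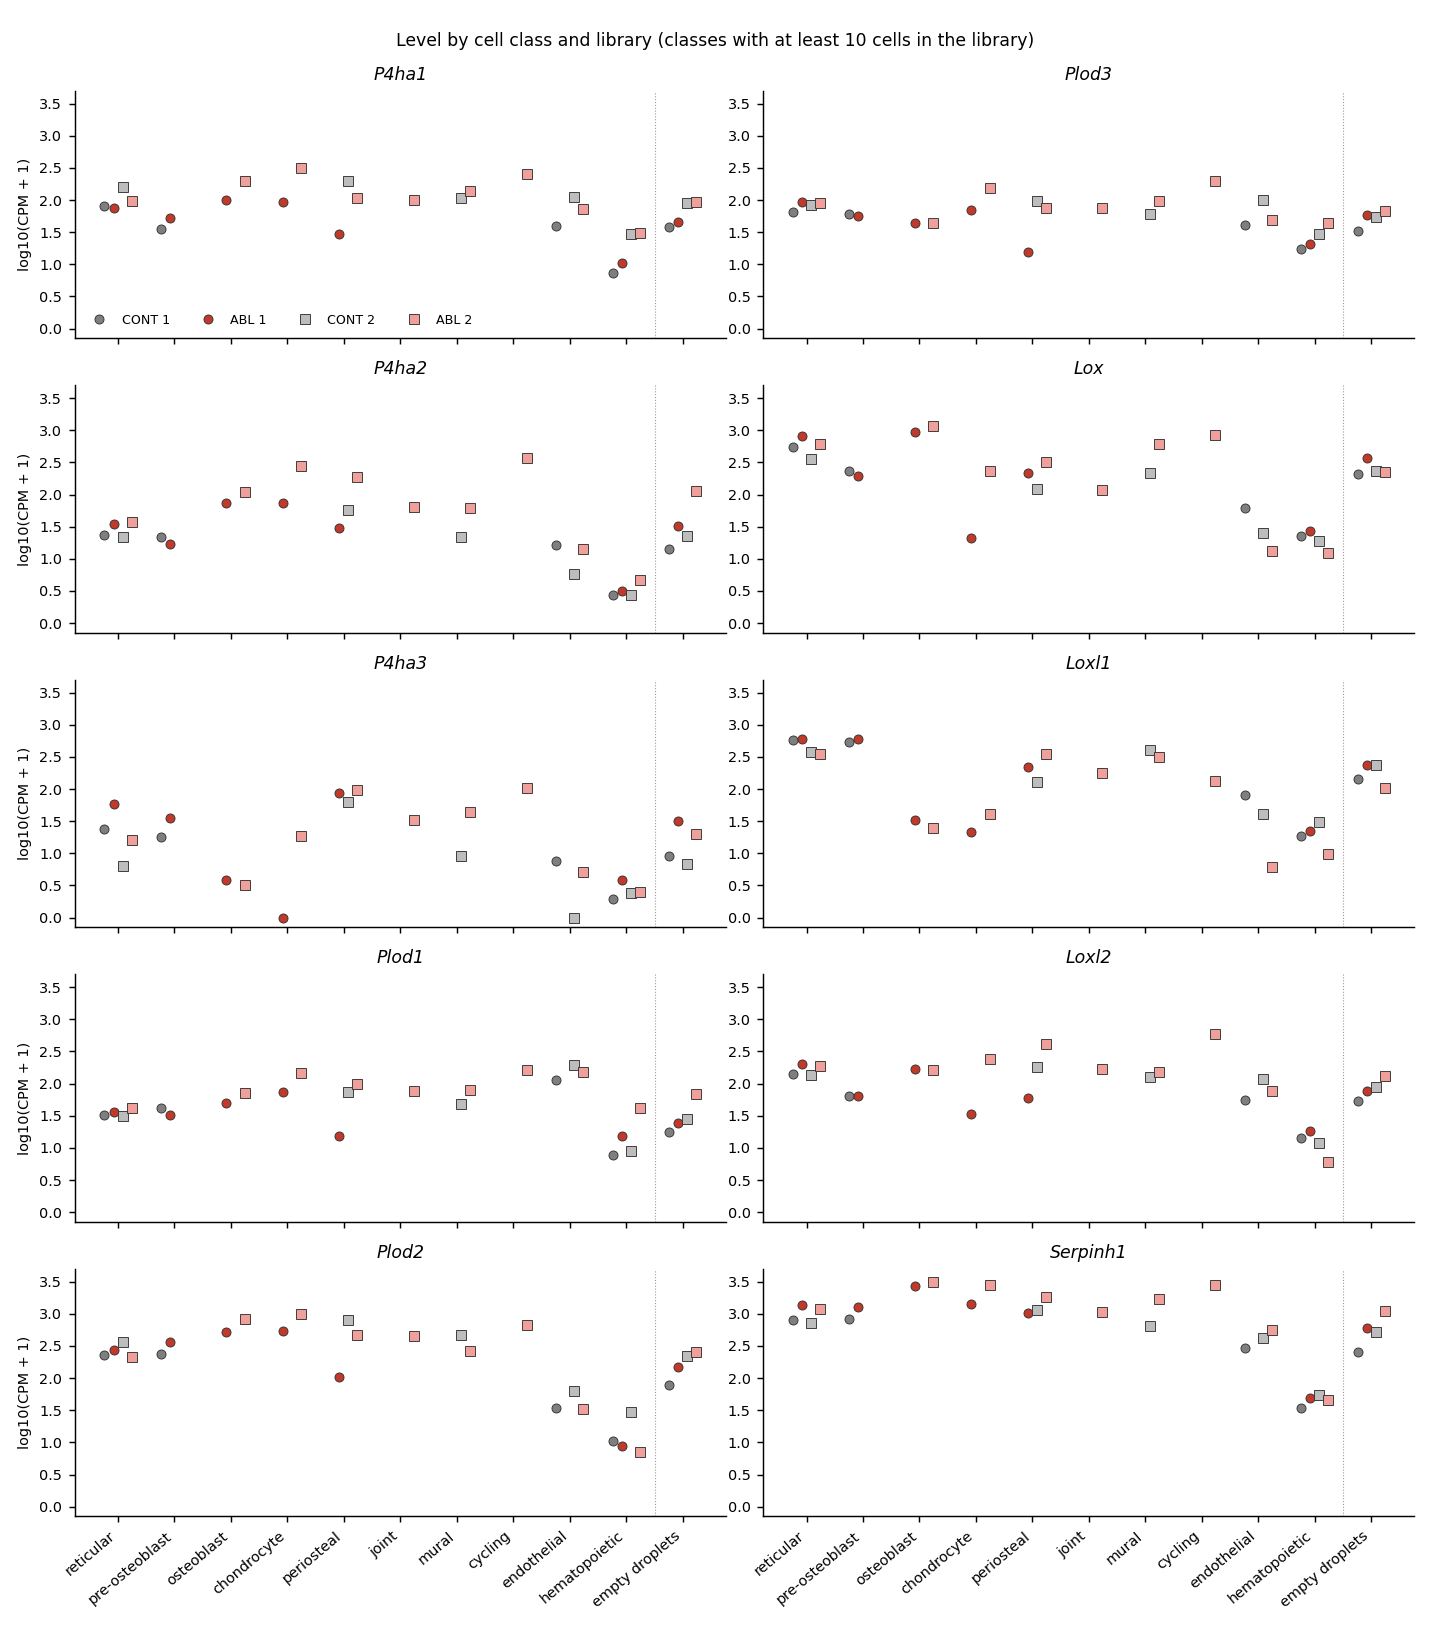
Level of each gene, as log10(CPM + 1), by cell class and library (grey CONT, red ABL; circles replicate 1, squares replicate 2), with empty droplets right of the dotted line; each point is 1 library and classes with fewer than 10 cells in a library are left out. Lox and Loxl1 part company in osteoblasts, where Lox reaches 924 to 1146 CPM and Loxl1 stays between 23.9 and 31.5 CPM, and Plod1 is the lysyl hydroxylase that is high in endothelial cells.

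The catalytic prolyl 4-hydroxylase subunits had different patterns. P4ha1, which encodes the most widely expressed subunit, was measured in every class of mesenchymal cells, from 29.1 CPM in the periosteal cells of ABL replicate 1 to 316 CPM in the chondrocytes of ABL replicate 2. Its ranges in chondrocytes (92.8 to 316 CPM), osteoblasts (100.3 to 196 CPM) and reticular cells (74.7 to 158 CPM) overlapped. The reticular range covers CONT and ABL, whereas chondrocytes and osteoblasts had enough cells in ABL alone. In both ABL libraries reticular cells were below these classes, although the chondrocyte value of ABL 1 rests on 23 UMIs. The order of chondrocytes and osteoblasts differed between the ABL libraries. P4ha2, the subunit of the type II enzyme, was low in reticular cells (21.0 to 37.0 CPM) and pre-osteoblasts (16.2 to 20.7 CPM). It was higher, without overlap with reticular cells, in osteoblasts (71.6 and 107 CPM) and chondrocytes (72.6 and 282 CPM), and its highest value was 373 CPM in the cycling cells of ABL replicate 2. P4ha3, the subunit of the third isoenzyme, was nearly absent from osteoblasts, which held 2.87 and 2.28 CPM, or 2 UMIs in each ABL library. Chondrocytes held 0 CPM in ABL 1, over 15 cells, and 17.9 CPM in ABL 2, the latter inside the reticular range. P4ha3 was highest in cycling cells (105 CPM) and in periosteal cells, a class of fibroblast-like cells with Clec3b and Dpt among its markers (61.1 to 96.6 CPM), against 5.37 to 57.9 CPM in reticular cells. The periosteal values of CONT 2 and ABL 1 rest on 11 and 6 UMIs, and their counting intervals (30.5 to 109 and 32.0 to 190 CPM) include the highest reticular value, whereas ABL 2 had 647 UMIs.

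The subunit genes also differ in the sequence upstream of their starts. Promoter sequences of RefSeq (GRCm38.p6) were found for 6 of the 10 genes, P4ha1, P4ha2, P4ha3, Plod1, Plod3 and Serpinh1, and the 250 bases upstream of the start were searched on both strands for the letters ACGTG and GCGTG, the cores of the element bound by hypoxia-inducible factors, because this enzyme family uses oxygen and P4ha1 is a textbook target of those factors. The windows of P4ha1 and P4ha3 are shown, 5′ to 3′ on the coding (+) strand, as a gene with and a gene without matches, with each ACGTG or GCGTG of either strand in capitals (CACGT or CACGC where the match is on the opposite strand).
P4ha1, chr10:59323046-59323295: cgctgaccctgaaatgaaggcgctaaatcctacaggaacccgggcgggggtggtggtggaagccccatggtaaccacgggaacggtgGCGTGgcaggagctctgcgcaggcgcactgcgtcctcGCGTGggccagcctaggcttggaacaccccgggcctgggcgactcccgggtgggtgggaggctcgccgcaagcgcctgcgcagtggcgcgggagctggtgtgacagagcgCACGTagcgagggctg
P4ha3, chr7:100285270-100285519: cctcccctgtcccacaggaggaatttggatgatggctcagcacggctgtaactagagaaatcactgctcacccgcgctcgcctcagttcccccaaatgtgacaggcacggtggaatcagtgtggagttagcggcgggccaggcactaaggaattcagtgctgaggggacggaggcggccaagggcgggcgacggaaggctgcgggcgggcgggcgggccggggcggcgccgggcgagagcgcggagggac
The P4ha1 window holds 3 matches, the nearest of them 16 bases before the start, and the P4ha3 window holds none. ACGTG was present upstream of 4 of the 6 genes (P4ha1, P4ha2, Plod3 and Serpinh1) against 16.6% of all 32841 promoters, and GCGTG upstream of 4 (P4ha1, P4ha2, Plod1 and Plod3) against 28.2%. The heat shock element GAANNTTC, held by 6.7% of promoters, was upstream of 0 of the 6. Such matches describe the letters only. The P4ha1 gene itself lies at chr10:59323296-59373304 and the P4ha3 gene at chr7:100285520-100319699, both on the + strand (GENCODE M21, GRCm38).

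Among the lysyl hydroxylases, Plod2, which hydroxylates lysines in the telopeptides of fibrillar collagen, dominated in mesenchymal cells. It reached 549 and 994 CPM in chondrocytes and 522 and 837 CPM in osteoblasts, above all 4 reticular values (210 to 365 CPM). Plod3, whose product also adds glucose to galactosyl-hydroxylysine, lay at 65.1 to 91.8 CPM in reticular cells and at 43.0 and 43.2 CPM in osteoblasts. Its highest values were 197 CPM in cycling cells and 154 CPM in chondrocytes, both of ABL replicate 2, and its lowest in a mesenchymal class was 14.5 CPM, or 1 UMI, in the periosteal cells of ABL replicate 1. Plod1, which acts on lysines of the helical domain, was high in endothelial cells, with 114, 191 and 148 CPM in CONT replicate 1, CONT replicate 2 and ABL replicate 2, against 30.7 to 41 CPM in reticular cells. The cycling cells (160 CPM) and chondrocytes (144 CPM) of ABL replicate 2 reached the same range. In endothelial cells Plod1 made up 54.5% to 64.6% of the UMIs of the 3 lysyl hydroxylase genes, while in the named mesenchymal classes its share ran from 6.4% to 18%, the highest value being that of the mural class.

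Lox and Loxl1 differed between the pre-osteoblasts of replicate 1 and the osteoblasts. Lox, which encodes the principal collagen-crosslinking oxidase, stood at 359 to 820 CPM in reticular cells, at 228 and 193 CPM in the pre-osteoblasts of CONT and ABL replicate 1, and at 924 and 1146 CPM in the osteoblasts of the 2 ABL libraries. Loxl1, known for its part in elastic fibre renewal, had the opposite order, with 535 and 609 CPM in pre-osteoblasts, 353 to 598 CPM in reticular cells and 31.5 and 23.9 CPM in osteoblasts. Pre-osteoblasts and osteoblasts did not overlap for either gene, and pre-osteoblasts and reticular cells overlapped for Loxl1 but not for Lox. The pre-osteoblast values come from replicate 1 alone, so this order was not seen in replicate 2. The unstable mural class of replicate 2 had Lox at 214 CPM in CONT and 611 CPM in ABL, the latter inside the reticular range.

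As a share of the UMIs of the 3 oxidase genes, Lox therefore went from 22.3% in the pre-osteoblasts to 82.4% in the osteoblasts of ABL replicate 1, and Loxl1 from 70.4% to 2.8%. The osteoblasts of ABL replicate 2 had 86.1% and 1.8%. Loxl2, which also crosslinks type IV collagen of basement membranes, was highest in cycling cells (600 CPM). It took the largest share of the 3 genes in the endothelial cells of CONT and ABL replicate 2 (64.4% and 81.3%) but 27.6% in those of CONT replicate 1. In chondrocytes of ABL 2 its share and that of Lox were nearly equal (46.6% and 45.7%). In those of ABL 1 Loxl2 had 44.4% of 18 UMIs (interval 21.5% to 69.2%), so no order was clear. Its share was the largest in periosteal cells of CONT 2 (42.3% of 78 UMIs) and ABL 2 (38.1%), but not of ABL 1 (11.8%).

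**Figure D2:**
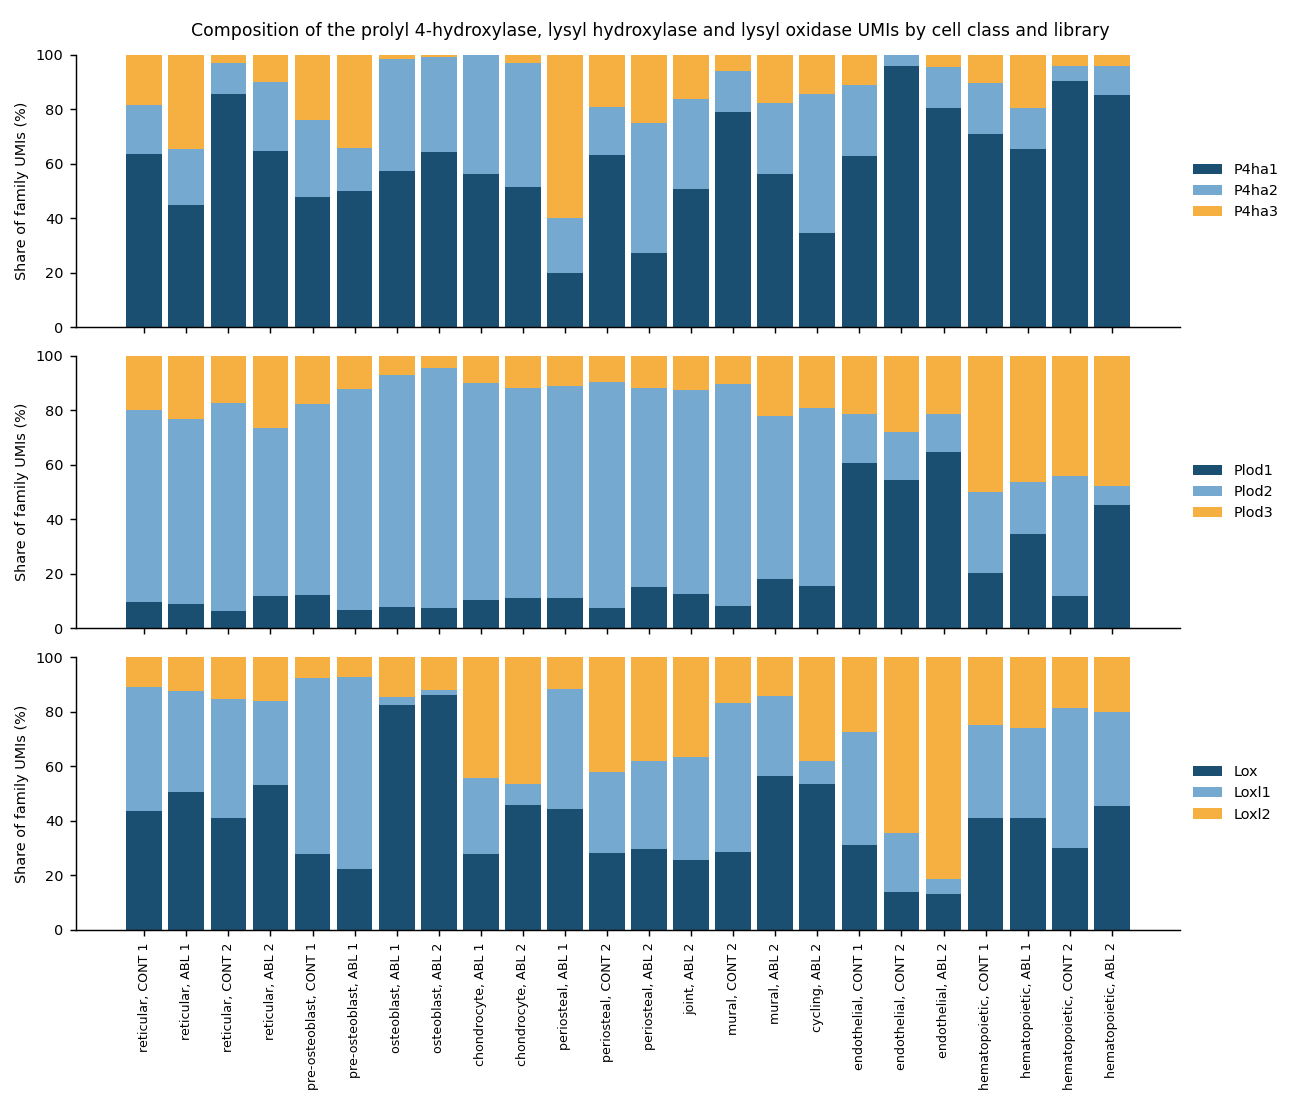
Share (%) of each gene in the UMIs of its family, for each cell class and library with enough cells, shown as stacked bars: prolyl 4-hydroxylase subunits above, lysyl hydroxylases in the middle, lysyl oxidases at the bottom. Loxl1 fills 64.9% and 70.4% of the bar in pre-osteoblasts and 2.8% and 1.8% in osteoblasts, and Plod1 takes the largest part of the lysyl hydroxylase bar in endothelial cells.

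Serpinh1 had the highest level of the 10 genes in each mesenchymal class. It ran from 706 to 1385 CPM in reticular cells, from 836 to 1281 CPM in pre-osteoblasts and from 2685 to 3083 CPM in osteoblasts, and the osteoblasts did not overlap with the other 2 classes. Endothelial cells ranged from 289 to 549 CPM and hematopoietic cells from 33.2 to 53.3 CPM. Set against its client, there were 1.61 and 1.57 Serpinh1 UMIs per 100 UMIs of Col1a1 and Col1a2 in the osteoblasts of ABL. Reticular cells had 23.1 to 47.0. The osteoblasts held 116164 and 172650 UMIs of these chains in ABL 1 and ABL 2, so the ratio was low although the Serpinh1 level was high. The same ratio for Lox was 0.56 and 0.58 against 12.7 to 27.9, so the difference was not particular to Serpinh1.

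In reticular cells, the comparison of ABL with CONT found 1 gene of the group to differ, P4ha3. Replicate 1 had 23.0 CPM (131 UMIs) in CONT against 57.9 CPM (162 UMIs) in ABL, and replicate 2 had 5.37 CPM (141 UMIs) against 15 CPM (41 UMIs). The ABL value was higher in both replicates, and the level differed by more between replicates than between conditions, so that the 2 conditions overlap over all 4 libraries. With the replicate as a block, P4ha3 rose 2.45-fold (log2 fold change 1.29 ± 0.27 SE, n = 2 libraries per condition, adjusted p = 1.13e-04, edgeR's quasi-likelihood test). Of the 11325 genes tested, 2.38% rose and 2.09% fell. The block rests on the description of the 2 femurs as coming from the same mice, which the Xist values go against in replicate 2. In replicate 1 the Xist shares also differed between CONT and ABL. The block leaves 1 residual degree of freedom, so the SE and p-value rest mainly on a spread that edgeR shares over genes. The call was lost in edgeR without the block (adjusted p = 1) and in DESeq2 with it (adjusted p = 0.136).

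**Figure D3:**
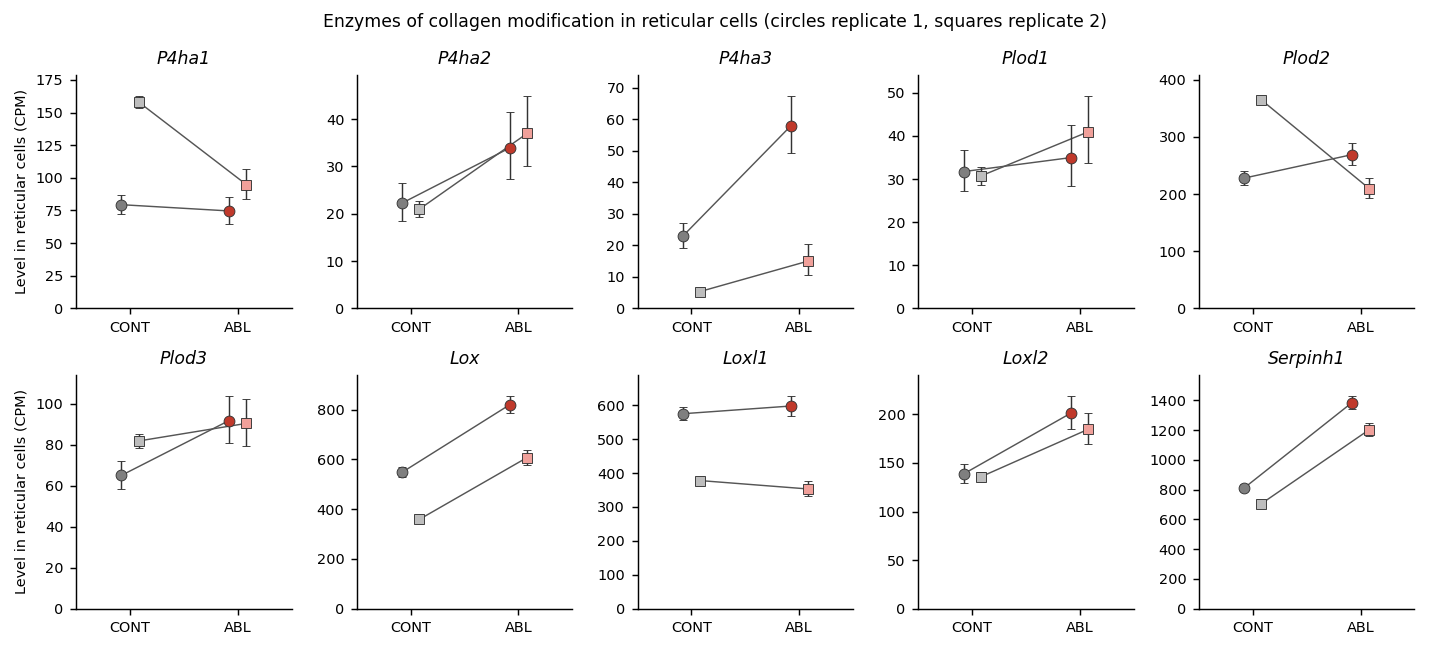
Level (CPM) of each gene in reticular cells of CONT and ABL femurs, with 1 panel per gene, axes from 0, lines joining the libraries of a replicate and bars for the 95% exact Poisson interval of the count, which covers counting error only. P4ha3 rises in both replicates from different starting levels, while P4ha1 in replicate 2 goes from 158 to 94.8 CPM and Plod2 moves in opposite directions in the 2 replicates.

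The increase of P4ha3 appeared across the reticular clusters. The 4 reticular clusters of replicate 1 lay between 17.4 and 26.8 CPM in CONT and between 47.9 and 69.4 CPM in ABL. In replicate 2, each of the 7 reticular clusters was higher in ABL than in CONT, by 2.00 against 0.715 CPM in the lowest and 35.6 against 6.85 CPM in the highest, although these values rest on 1 to 17 UMIs in ABL. With all cells thinned to 2000 UMIs, a UMI of P4ha3 was found in 3.44% (CONT 1), 7.65% (ABL 1), 0.812% (CONT 2) and 3.80% (ABL 2) of reticular cells. The corresponding shares of hematopoietic cells were 0.305%, 0.804%, 0% and 0% (exact upper bounds of the last 2, 1.13% and 0.60%), so the reticular shares of ABL lay above those of hematopoietic cells in both replicates. P4ha3 in the empty droplets went the same way, with 8.23 CPM in CONT 1, 31.1 CPM in ABL 1, 5.89 CPM in CONT 2 and 18.9 CPM in ABL 2. The reticular level was above that of the droplets in replicate 1 and below it in both libraries of replicate 2. After subtraction of the estimated free RNA the log2 fold change was 1.27 (adjusted p = 0.00138, edgeR). The estimate was 8.39% and 7.45% of reticular UMIs in CONT 1 and ABL 1, and 2.44% and 0.977% in CONT 2 and ABL 2. These shares, estimated from genes of neutrophils, were small, so the subtraction could move the fold change little. The part of free RNA in the P4ha3 result was not tested. The 10 periosteal markers summed to 562 and 466 CPM in reticular cells of CONT and to 682 and 811 CPM in those of ABL, with Thy1 at 0 in both libraries of replicate 1 and Cd34 at 0 in ABL replicate 1. The 10 pre-osteoblast markers, all detected in every library, summed to 2750 and 2721 CPM in reticular cells of CONT and to 6292 and 4702 CPM in those of ABL. The sum of the 10 osteoblast markers went the other way. It was 4045 and 7383 CPM in reticular cells of CONT and 3149 and 2677 CPM in those of ABL. Such sums follow their most abundant markers, and the directions of single markers were not compared. The part of any of these marker groups in the result was not tested.

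Most of the other genes were also higher in ABL reticular cells of both replicates without passing the test. By CPM, 7 of the 10 were higher in ABL in both replicates and 1 was lower in both, against 38.1% and 21% of all genes tested, and 3 had an unadjusted p under 0.05, against 14.1%. The median log2 fold change of the 10 was 0.30, beside -0.01 over all genes tested. Serpinh1 had 812 and 706 CPM in the CONT libraries of replicates 1 and 2, and 1385 and 1203 CPM in the ABL libraries (log2 0.67 ± 0.42 SE, adjusted p = 0.516, edgeR). Each of its ABL values exceeded both CONT values.

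Lox behaved likewise within replicates, with 548 and 820 CPM in replicate 1 and 359 and 608 CPM in replicate 2 (log2 0.57 ± 0.37 SE, adjusted p = 0.554, edgeR). P4ha2 had 22.3 and 33.9 CPM, and 21.0 and 37.0 CPM (log2 0.62 ± 0.25 SE, adjusted p = 0.167, edgeR). Its ABL values were also above both CONT values. Loxl2, Plod3 and Plod1 had smaller positive fold changes, of log2 0.39, 0.22 and 0.18. In the order CONT 1, ABL 1, CONT 2, ABL 2, Loxl2 stood at 139, 201, 136 and 185 CPM, Plod3 at 65.1, 91.8, 81.8 and 90.4 CPM, and Plod1 at 31.7, 35, 30.7 and 41 CPM. By CPM, P4ha1 was the gene that was lower in both replicates, with 79.4 and 74.7 CPM in replicate 1 and 158 and 94.8 CPM in replicate 2 (log2 -0.52 ± 0.25 SE, adjusted p = 0.317, edgeR). As a share of cells with a UMI at 2000 UMIs per cell, P4ha1 was 14.9% in CONT 1 and 15% in ABL 1, so by that measure it was lower in replicate 2 alone. Plod2 was at 228 CPM (CONT 1), 269 CPM (ABL 1), 365 CPM (CONT 2) and 210 CPM (ABL 2), and Loxl1 at 575, 598, 378 and 353 CPM in the same order. For these 2 genes the CPM values of the replicates differed in direction. After TMM scaling between libraries, however, the log2 change of Loxl1 was negative in both replicates (-0.083 and -0.216). On that scale Plod1 in replicate 1 and Plod3 in replicate 2 changed by only 0.002 and 0.025.

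The make-up of the families in reticular cells differed accordingly. P4ha1 made up 63.7% and 85.7% of prolyl 4-hydroxylase subunit UMIs in CONT 1 and CONT 2, but 44.8% and 64.6% in ABL 1 and ABL 2. The share of P4ha3 went from 18.4% to 34.8% and from 2.9% to 10.2%, and that of P4ha2 from 17.9% to 20.4% and from 11.4% to 25.2%. Among the oxidases, Lox went from 43.5% to 50.7% and from 41.2% to 53.0%, and Loxl1 from 45.6% to 36.9% and from 43.3% to 30.8%. The direction was the same in both replicates for each of these shares, and with 2 libraries against 2 an exact permutation test cannot go below p = 0.333.

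Over all mesenchymal cells, named or not, 0 of the 10 genes passed the test in edgeR, where 2.48% of 13724 genes rose and 1.02% fell. By CPM, 9 were higher and 1 lower in ABL in both replicates, against 33.7% and 30.1% of all genes. The fitted log2 fold change was positive for 8 of the 10, and for 6395 of the 13724 genes. P4ha1 was slightly higher by CPM but negative in the fit. At an unadjusted p under 0.05 there were 3 of 10, against 16.1%, and DESeq2 called 2, P4ha2 and P4ha3, both higher. P4ha2 was at 22.7 and 21.9 CPM in CONT 1 and CONT 2 and at 47.5 and 182 CPM in ABL 1 and ABL 2 (log2 2.03 ± 0.55 SE, adjusted p = 0.0505, edgeR). P4ha3 was at 28.2 and 6.78 CPM in the CONT and at 53.6 and 60.3 CPM in the ABL libraries (log2 2.00 ± 0.54 SE, adjusted p = 0.0513, edgeR).

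Both genes were higher in each ABL library than in each CONT library, and the change in replicate 2 was the larger. Plod1 had 33.2 and 41.5 CPM, and 31.7 and 108 CPM (log2 1.01 ± 0.47 SE, adjusted p = 0.300, edgeR), and Serpinh1 847 and 1605 CPM, and 731 and 2013 CPM (log2 1.15 ± 0.78 SE, adjusted p = 0.537, edgeR). Loxl1 was lower in ABL in both replicates, with 545 and 468 CPM, and 379 and 224 CPM (log2 -0.53 ± 0.60 SE, adjusted p = 0.758, edgeR). Fewer reticular cells and a change per cell are mixed in these sums. In ABL replicate 1, reticular cells held 33.1% of the P4ha2 UMIs and 50% of the P4ha3 UMIs of mesenchymal cells. Unnamed mesenchymal cells held 38.3% and 39.5% there. In ABL replicate 2, reticular cells held 2.2% and 2.7%, periosteal cells 26.6% and 41.9%, and cycling cells 25.2% and 21.3%. Unnamed mesenchymal cells of that library held 28.05% and 21.1%. A cluster of 365 cells of that library, led by Msmp, Fmod and Lsp1 and not named, had P4ha2 at 247 CPM.

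**Figure D4:**
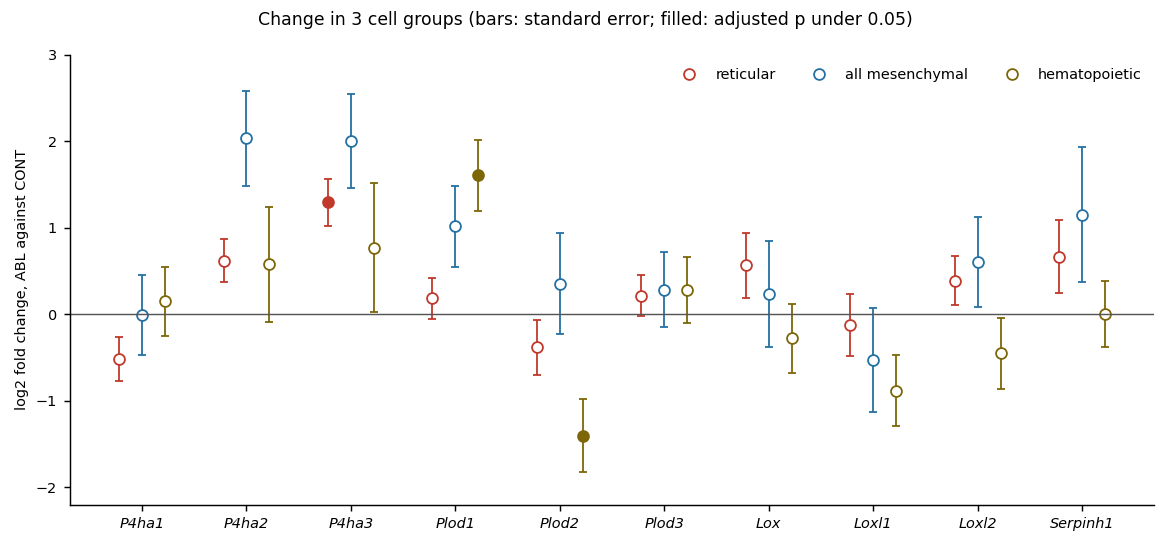
Log2 fold change of ABL against CONT for each gene in reticular, all mesenchymal and hematopoietic cells (edgeR with the replicate as block), with bars for the standard error and filled points for an adjusted p under 0.05. The filled points are P4ha3 in reticular cells at 1.29 and, in hematopoietic cells, Plod1 at 1.61 and Plod2 at -1.40.

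In hematopoietic cells Plod1 rose and Plod2 fell, where 3.83% of 11907 genes rose and 2.6% fell. Plod1 had 6.62 and 7.90 CPM in CONT 1 and CONT 2, and 14.6 and 41.2 CPM in ABL 1 and ABL 2 (log2 1.61 ± 0.41 SE, adjusted p = 0.00329, edgeR). These levels lay below those of the empty droplets in every library (16.9, 27.2, 23.2 and 68.8 CPM in the same order). Its highest levels were in a few clusters. Those with C1qa, C1qb and C1qc among the leading genes, which mark macrophages, held 72.1 CPM in CONT replicate 1, 53.2 CPM in ABL replicate 1 and 85.4 CPM in ABL replicate 2, and those with Acp5 and Atp6v0d2, genes of osteoclasts, held 46.0 and 67.3 CPM in the 2 ABL libraries. The first kind gave 16 of the 117 Plod1 UMIs of hematopoietic cells in CONT 1, 46 of 107 in ABL 1 and 166 of 364 in ABL 2, and the second gave 21 and 152 in the ABL libraries. Clusters of the first kind were 1.83% of hematopoietic cells in CONT 1, 15.3% in ABL 1, 0 of 326 in CONT 2 and 29.4% in ABL 2. Clusters of the second kind were found in ABL alone (2.68% and 13.1%). The part of these shares, and of free RNA, in the result was not tested.

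Plod2 in hematopoietic cells had 9.67 and 28.7 CPM in CONT 1 and CONT 2, and 7.90 and 6.11 CPM in ABL 1 and ABL 2 (log2 -1.40 ± 0.42 SE, adjusted p = 0.0186, edgeR). In every library it too lay below the level of the empty droplets (76.3 to 257 CPM), and the part of free RNA was not tested. Neither call held in edgeR without the block (adjusted p = 0.410 for Plod1 and 0.584 for Plod2) or in DESeq2 (0.0905 and 0.320). The difference between the changes in reticular and in hematopoietic cells passed the test for 0 of the 10 genes and for 0 of 13114 genes in edgeR, and for 0 of the 10 in DESeq2, with 2 of 10 at an unadjusted p under 0.05 (8.61% of all genes) in edgeR. The same fit made no call on simulated data with known changes, so it says nothing about whether the changes were alike.

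The collagen chains that these enzymes act on rose in part. Of 6 fibrillar chain genes, 3 rose in reticular cells and 0 fell (median log2 fold change 0.96). Of all genes tested there, 2.38% rose and 2.09% fell. The 3 were Col1a1, Col3a1 and Col11a1, with log2 fold changes of 2.93, 2.07 and 0.94. For Col11a1 the change was 1.60 in replicate 1 and 0.24 in replicate 2. Col1a1, which encodes the main chain of bone collagen, had 418 and 194 CPM in CONT 1 and CONT 2, and 2676 and 2021 CPM in ABL 1 and ABL 2. Serpinh1 UMIs per 100 UMIs of Col1a1 and Col1a2 were accordingly 41.3 and 47.0 in CONT, and 23.1 and 25.2 in ABL. In hematopoietic cells, too, 3 of the 6 chains rose and 0 fell (median 1.29), where 3.83% of all genes tested rose. The empty droplets held 11153 and 5310 UMIs of Col1a1 and Col1a2 in CONT 1 and CONT 2. In ABL 1 and ABL 2 they held 73086 and 60064. The part of free RNA in the chain values and in this ratio was not tested. Of 7 genes of the elastic fibre, the other substrate of lysyl oxidases, 3 rose in reticular cells and 0 fell (median 0.65), beside the same shares of all genes. The 3 were Mfap4, Eln and Mfap2, which rose by 4.49, 2.91 and 1.35 on the log2 scale. Mfap4 rests on 2 and 8 UMIs in CONT 1 and CONT 2 and on 19 and 23 in ABL 1 and ABL 2, so the size of its fitted change depends on the prior count. Eln, which encodes elastin, was scarce all the same (7 UMIs in CONT 1), with 1.23 and 1.98 CPM in CONT and 16.8 and 11.3 CPM in ABL.

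Of 27 other genes of collagen processing, 24 were tested in reticular cells, of which 1 rose and 2 fell (median 0.25). Of all genes tested there, 2.38% rose and 2.09% fell. Pcolce2, an enhancer of procollagen cleavage, rose by 3.21 on the log2 scale from 0.702 and 0.114 CPM in CONT to 3.57 and 2.56 CPM in ABL. These levels are 4 and 3 UMIs in CONT and 10 and 7 UMIs in ABL, so the size of this change is uncertain too. P3h2, a prolyl 3-hydroxylase, fell by 1.45 on the log2 scale, from 134 and 96.6 CPM in CONT to 65.4 and 30.01 CPM in ABL, and Adamts14, a procollagen peptidase, fell by 1.00 on the log2 scale. Over all mesenchymal cells, Pcolce2 and Eln rose (log2 3.56 and 2.79) and P3h2 fell (log2 -2.09), where 2.48% of all genes rose and 1.02% fell. Of the 6 chains, 0 passed the test. Each was higher in ABL in both replicates (33.7% of all genes), and all 6 had an unadjusted p under 0.05 (16.1% of all genes). Of 15 targets of hypoxia-inducible factors, 13 were tested in reticular cells, of which 0 rose and 2 fell (median -0.21). The shares over all genes tested were the 2.38% and 2.09% given above. The 2 were Ndrg1, which fell by 0.87 on the log2 scale, and Ero1l, an oxidase of the endoplasmic reticulum, by 0.84. Each of the 3 genes Adamts14, Ndrg1 and Ero1l was lower in both replicates.

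The genes most like each of the 10 in their pattern were sought over 25 sums of 1 library and 1 cell class with at least 20 cells, by Pearson's r of log2(CPM + 10) among 5988 genes. These points share libraries and depth, so r is a description. Serpinh1 was most like Fkbp10, Sec24d and Selm (r = 0.97 for each), of which Fkbp10 encodes another collagen chaperone and Sec24d a coat protein of vesicles that leave the endoplasmic reticulum. Plod2 was most like Ikbip, Fgfr1 and Fkbp14 (0.95, 0.94 and 0.94), and Plod3 like Pdia3, Calr and Hsp90b1 (0.92, 0.91 and 0.89), all 3 chaperones of the endoplasmic reticulum. P4ha1 was most like Rrbp1, Srpr and Dnajc1 (0.94, 0.92 and 0.92), and P4ha2 like Bet1l, Arl1 and Lgalsl (0.94 for each).

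For P4ha3 the nearest genes were Sod3, Dkk3 and Ift27 (0.88 for each). Plod1 was nearest to Gas2l1, Zfhx3 and Piezo1 (0.93, 0.88 and 0.87). Lox was nearest to Rcn1, Mmp23 and Snhg18 (0.94, 0.93 and 0.92), Loxl1 to Fstl1, Olfml2b and Epdr1 (0.95, 0.95 and 0.94), and Loxl2 to Bgn, Fkbp9 and Calu (0.89 for each). Among the 45 pairs within the group, Plod2 and Serpinh1 had the highest r (0.92), and Plod1 and Loxl1 the lowest (-0.07).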

How the data were processed

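The authors sorted tdTomato+ cells, made Chromium 3′ libraries and processed them with Cell Ranger against mm10 with reporter sequences added (the matrix headers of replicate 2 give software version 3.0.0), and the deposited matrices hold unfiltered UMI counts. Cells were called here with the gene and mitochondrial limits of the study (500 or more genes and up to 20% for version 2, 1000 or more and up to 15% for version 3) plus a UMI minimum, a 10-fold step below percentile 99 of the 3000 deepest barcodes. Droplets with at most 300 UMIs gave the free RNA. Total counts per library were 44784072 (CONT 1), 22889380 (ABL 1), 40486876 (CONT 2) and 41536563 (ABL 2), and intervals cover counting error only. No doublets were removed in the main analysis. Scrublet (scanpy 1.11.5) marked 0.0832% to 2.27% of cells, in CONT 2 only 2 of 2404, where it is taken not to have worked.

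Clustering used Seurat 5.3.0 in R 4.3.3 (2000 variable genes, 30 principal components, 20 neighbours, resolution 0.8), first per library, then on mesenchymal cells integrated by replicate. The 10 genes, the genes of the lists named below and the reporter sequences were left out of both steps. The markers were left out of the second step alone, so they took part in dividing mesenchymal from hematopoietic cells. Names came from 137 marker genes (minimum score 0.25, margin 0.1, pseudocount 10 CPM, at least 3 detected markers). Counts summed per library and class were tested with edgeR 4.0.16 (quasi-likelihood test, TMM, Benjamini-Hochberg over all genes tested, threshold 0.05). The condition was fitted with the replicate as a block, because the study describes the 2 femurs of a replicate as coming from the same mice and the chemistry differed between replicates. The Xist values of replicate 2 go against the first of these, and those of replicate 1 also differed between CONT and ABL. The deviations of same-numbered libraries correlated at 0.695 in reticular, 0.448 in all mesenchymal and 0.524 in hematopoietic cells. Same-numbered libraries also share the chemistry, so these correlations cannot show a pairing by mouse. With pooled mice and 2 libraries per condition, p-values do not measure the spread between mice. With few residual degrees of freedom, edgeR shares the spread between libraries over genes. A p-value or SE therefore rests mainly on that shared spread, not on that of the gene alone. The script was tested on simulated data. DESeq2 1.42.0 and other settings were alternatives, whose effect is given at the end.

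The genes and the lists (27 other genes of collagen processing, 6 chains, 7 elastic fibre genes and 15 hypoxia targets) were chosen with earlier results of these data known. All 10 genes are named; list genes are named where past the threshold in reticular or all mesenchymal cells, at most 5 per list. For likeness, genes with a mean of at least 20 CPM were compared.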

Additional observations from a re-analysis of the deposited data

Results flagged for a closer look

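P4ha1 had changes of opposite sign in reticular and hematopoietic cells: normalized log2 changes were -0.23 and -0.85 in reticular cells of replicates 1 and 2, and 0.40 and 0.10 in hematopoietic cells. By share of reticular cells with a UMI, it was lower in replicate 2 alone. In hematopoietic cells it stood at 6.45 to 29.7 CPM, below the empty droplets (37.2 to 90.9 CPM), and the part of free RNA was not tested. This sign pattern was itself not tested. The difference between the changes was -0.82 ± 0.41 (SE, log2 scale) with an adjusted p = 0.628 in edgeR.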

How the results depend on the processing

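In reticular cells the single call, P4ha3, was lost in DESeq2 and in edgeR without the replicate block (0 genes higher in each). That fit with 1 library left out also gave no call (0 to 0 genes; log2 fold change 2.61 without CONT replicate 1, 0.07 without ABL replicate 1, 0.55 without CONT replicate 2 and 1.90 without ABL replicate 2, the lone library being assumed to vary like the others), which says nothing about dependence on 1 library, since the call was already lost. Within replicate 1 and replicate 2 alone its log2 fold changes were 1.18 and 1.34, values with no test. Over all mesenchymal cells, where 0 genes were higher, P4ha2 and P4ha3 passed (2 genes) in DESeq2, without TMM, with the study's cell filter alone, with free RNA subtracted and in cells with a tdTomato UMI, and 0 to 1 gene passed with 1 library left out (P4ha2 without ABL replicate 1). In hematopoietic cells the calls of Plod1 and Plod2 were both lost without the replicate block and in DESeq2 (0 higher, 0 lower). For the difference between reticular and hematopoietic cells, 1 gene, Plod1, was lower when the filter on low counts was dropped. By share of cells with a UMI, 0 genes in place of 1 were lower in ABL reticular cells of both replicates. Apart from values within 1 replicate alone, directions turned only for genes that passed no test. P4ha1 in all mesenchymal cells turned to 0.00795 without the replicate block, 0.0233 in DESeq2 and 0.036 without TMM. It was 0.00427, 0.00234 and 0.00144 with the study's cell filter alone, free RNA subtracted and tdTomato cells. Without ABL replicate 1 and CONT replicate 2 it was 0.505 and 0.68. P4ha2 and Plod3 turned in the difference (0.10 and 0.0042 in DESeq2). With 1 library left out, Loxl1 in reticular cells was 0.188 and 0.163 without CONT replicate 1 and ABL replicate 2, and Plod1 -0.00346 without the latter. In all mesenchymal cells Lox was -0.00351 without ABL replicate 1, and Plod2 -0.147 without ABL replicate 2. Within replicate 1 alone, Plod2 in reticular cells was 0.0993, against a negative fitted value. Over the alternatives in hematopoietic cells, Lox (-0.556 to 0.163), Loxl1 (-1.72 to 0.115), Loxl2 (-1.01 to 0.229) and Serpinh1 (-0.199 to 0.394) spanned both signs. Scaling without TMM moved the median log2 fold change of all genes by 0.101 in reticular, 0.0413 in all mesenchymal and 0.141 in hematopoietic cells. The cause of these changes was not tested. Low counts limit the called genes P4ha3 (41 UMIs in the reticular cells of ABL replicate 2), Mfap4 and Pcolce2 (2 to 23 and 3 to 10 UMIs per library).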
